A study of Mus musculus with 53 samples.

Results

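Transcripts of 9 genes were examined that encode histone deacetylases and parts of the NCoR corepressor complex: the class I deacetylases Hdac1, Hdac2, Hdac3 and Hdac8, the class IIa deacetylases Hdac4, Hdac5 and Hdac7, the corepressor scaffold Ncor1 and its WD40 partner Tbl1xr1. They were chosen by gene symbol from the 23847 loci listed in each expression table. All 9 reached 1 FPKM (the number of sequenced fragments of a transcript, scaled by its length and by the mapped total of the sample) in at least 1 sample, as did 11146 loci in all, and these loci were tested. None of the 9 symbols was listed at more than 1 locus.

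The study profiled poly-A RNA from bone marrow-derived macrophages (BMDMs) of WT and Stat6-/- C57BL/6 mice aged 8-12 weeks, and asked which transcripts IL-4 raises or lowers and whether STAT6, the transcription factor that the IL-4 receptor activates, is needed. Marrow cells of both genotypes were grown for 6 days in L929 supernatant, a source of M-CSF, and then either received 20 ng/ml IL-4 for 1, 3, 6 or 24 h or served as controls of the same time. A control at 0 h was also taken. There were 4 WT samples in each group, except 3 at 24 h of IL-4 (replicates 2, 3 and 4), and 2 Stat6-/- samples in each group, giving 53 samples in 18 groups. The Stat6-/- mice lack the factor in the whole body, so the marrow precursors also developed without it, and each genotype came from its own mice. A figure legend of the paper gives 4 WT animals and n = 2 for Stat6-/- cells, so groups share animals, which the main fit does not model. The labels do not tie a replicate number to an animal, and p-values measure the spread between these samples.

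Depth and identity of the samples were examined first. Summed over all loci, a sample held 385889 to 464915 FPKM, and 10017 to 10380 loci reached 1 FPKM. Depth relative to the median sample, recovered from low loci, ran from 0.706 to 1.555, and the absolute depth is unknown. Stat6 itself was at 58.7 to 90.6 FPKM in the 35 WT samples and at 14.3 to 24 FPKM in the 18 Stat6-/- samples, so the groups did not overlap, although reads remained over this locus. Of 7 macrophage markers, 6 were found under their symbols and all 6 were expressed, with a summed level of 2604 to 4469 FPKM. The T cell, erythroid and fibroblast markers found all stayed under 1 FPKM in every sample. Of the B cell, dendritic and mast cell or eosinophil lists of 4 genes each, 1, 1 and 2 genes reached 1 FPKM in any sample, and these lists summed to at most 13.9, 1.89 and 9.25 FPKM. A neutrophil list (5 of 6 genes found) summed to 195 to 550 FPKM in WT and to 514 to 963 FPKM in Stat6-/- samples.

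Histone deacetylases remove acetyl groups from lysines of histones and other proteins and mostly work inside larger complexes. Class I enzymes are mainly nuclear and are catalytically active, for HDAC3 within its complexes. HDAC1 and HDAC2 sit in the SIN3, NuRD and CoREST complexes, whereas HDAC3 takes its activity from NCoR1 complexes, which unliganded nuclear receptors and other repressors bring to chromatin. Class IIa enzymes have little deacetylase activity of their own, bind MEF2 factors, and move between nucleus and cytoplasm under kinases that phosphorylate them. TBLR1, the product of Tbl1xr1, is a WD40 repeat protein that holds NCoR1 complexes on chromatin and takes part in the exchange of corepressors for coactivators.

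Promoter sequences are shown for Tbl1xr1, Hdac5 and Hdac7 because these 3 transcripts moved together after IL-4. Reference promoters were matched for 7 of the 9 genes (RefSeq, GRCm38.p6). Each sequence below is the 250 bases before an annotated start, read 5′ to 3′ on the strand of the gene. Capitals mark TTC followed by GAA after 3 or 4 bases of any kind (TTCNNNGAA or TTCNNNNGAA), which read the same on both strands and are the shapes that STAT dimers bind. The 4-base spacing is the one that STAT6 is known to prefer. Hdac7 has 4 such windows, of which 2 are shown.
Tbl1xr1, chr3:22076402-22076651, plus strand: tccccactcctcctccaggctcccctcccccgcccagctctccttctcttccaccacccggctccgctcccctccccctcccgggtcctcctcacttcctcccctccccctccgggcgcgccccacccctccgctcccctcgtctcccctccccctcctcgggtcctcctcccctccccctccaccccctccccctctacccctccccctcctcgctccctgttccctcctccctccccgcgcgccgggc
Hdac5, chr11:102230173-102230422, minus strand: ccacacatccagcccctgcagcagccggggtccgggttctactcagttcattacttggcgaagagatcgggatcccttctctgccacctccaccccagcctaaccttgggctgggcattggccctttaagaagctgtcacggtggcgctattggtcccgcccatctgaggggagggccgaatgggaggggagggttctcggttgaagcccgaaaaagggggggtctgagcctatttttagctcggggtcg
Hdac7, first start, chr15:97844503-97844752, minus strand: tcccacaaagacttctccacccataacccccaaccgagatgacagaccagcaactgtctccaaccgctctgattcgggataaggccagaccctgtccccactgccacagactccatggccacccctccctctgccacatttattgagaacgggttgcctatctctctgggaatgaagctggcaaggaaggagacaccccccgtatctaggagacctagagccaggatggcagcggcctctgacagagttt
Hdac7, internal start, chr15:97831768-97832017, minus strand: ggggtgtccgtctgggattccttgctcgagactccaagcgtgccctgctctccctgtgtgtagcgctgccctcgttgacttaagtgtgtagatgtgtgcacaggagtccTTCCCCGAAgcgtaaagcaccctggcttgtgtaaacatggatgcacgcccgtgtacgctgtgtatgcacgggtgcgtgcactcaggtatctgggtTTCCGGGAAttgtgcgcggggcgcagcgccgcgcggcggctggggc

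The Tbl1xr1, Hdac5 and first Hdac7 windows held neither spacing. The internal Hdac7 window shown held TTCNNNGAA at 2 places that begin 141 and 46 bases before the start, and another internal window held it 222 bases before its start. The remaining internal Hdac7 window held neither spacing. Of the 32851 reference windows of this length, 7.02% held TTCNNNGAA, and 8.13% of the 27025 genes held it in any window. TTCNNNNGAA, present in 5.85% of windows, occurred among the matched members in Hdac4 alone. It began 93 bases before a start that lies upstream of the Hdac4 locus quantified here. These matches are descriptions of the letters and not sites of binding.

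The 9 transcripts covered a wide range of levels. In WT controls at 0 h, Hdac5 was the most abundant at 42.8 ± 6.78 FPKM (SD, n = 4 here and for the next values), followed by Hdac3 at 23.8 ± 2.57, Hdac2 at 19.9 ± 1.42 and Ncor1 at 17.6 ± 1.31 FPKM. Tbl1xr1 stood at 11 ± 1.69 FPKM. Hdac1 and Hdac7 lay close together at 7.85 ± 0.88 and 7.62 ± 0.756 FPKM, and Hdac8 and Hdac4 were lowest at 5.41 ± 0.876 and 2.42 ± 0.463 FPKM. Between neighbours in this order the 4 values overlapped for Hdac3 and Hdac2, Hdac2 and Ncor1, Tbl1xr1 and Hdac1, and Hdac1 and Hdac7, and were apart for the other pairs. FPKM is scaled per length, so levels of different genes are set side by side on it. Across all 53 samples Hdac3 had the narrowest range, from 19.3 to 28.1 FPKM, a ratio of 1.46 between the highest and the lowest sample, and Hdac5 the widest, from 22.1 to 52.6 FPKM, a ratio of 2.38.

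**Figure D1:**
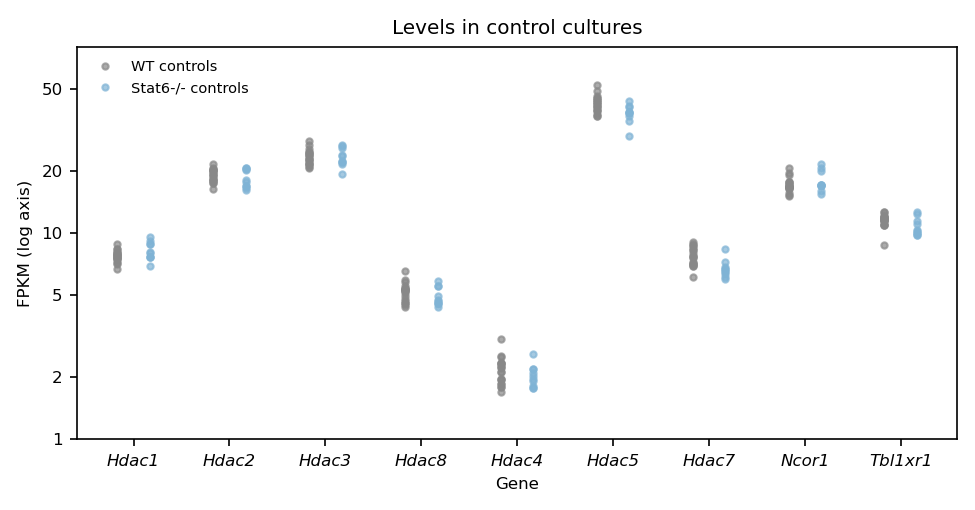
FPKM of each gene (x axis) on a log axis in the 20 WT and 10 Stat6-/- control samples of all times, each point 1 sample. Hdac5 sits at 36.9 to 52.6 FPKM in WT controls and Hdac4 at 1.69 to 3.06 FPKM, and the genotypes overlap for all 9 genes.

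First, the response to IL-4 was determined in WT against controls of the same time. Tbl1xr1, Hdac5 and Hdac7 fell together at 3 h and were still lower at 6 and 24 h, whereas Hdac3 and Hdac4 passed the test at no time. At 24 h Hdac8, Ncor1 and Hdac1 were also lower and Hdac2 was higher. No member passed with a 2-fold change on the log2(FPKM + 1) scale (1.49%, 3.88%, 5.54% and 8.5% of all loci did at 1, 3, 6 and 24 h), which understates changes of low transcripts. The test was limma's, fitted to all 11146 loci and all 53 samples, and a gene passed at a Benjamini-Hochberg adjusted p under 0.05. The numbers of members that passed were 1, 3, 3 and 7 of 9 at 1, 3, 6 and 24 h, beside 9.39%, 28.9%, 41.2% and 55% of all loci, so the count alone did not set the members apart from other loci. All of the passing members at 1, 3 and 6 h were decreased, as were 3.72%, 12.5% and 19.2% of all loci. At 24 h 6 members were decreased and 1 increased, beside 31.6% and 23.4% of all loci. The treated and control samples did not overlap for 0, 3 and 3 members at 1, 3 and 6 h, all with IL-4 lower, beside 7.81%, 18.1% and 22.3% of all loci with IL-4 lower and 8.27%, 20.8% and 23.8% with IL-4 higher.

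Tbl1xr1 (chromosome 3, 22076652 to 22216594, mm10) showed the largest decrease of the 9 at 3 and 6 h. At 24 h Hdac5 did, and this order was not tested. At 3 h its 4 control samples were at 11.6, 11.5, 12 and 11 FPKM and its 4 IL-4 samples at 5.88, 5.7, 5.92 and 5.59 FPKM. Every treated sample lay below every control, and the mean was 49.9% lower (log2 change -0.89, SE 0.08, limma adjusted p = 7.95e-12). One hour of IL-4 had left it at 11.5, 11.4, 10.2 and 11.4 FPKM against 11.7, 11.1, 12 and 11 FPKM, groups that overlapped (-0.04, adjusted p = 0.863). At 6 h the treated samples were at 6.59, 6.69, 6.64 and 8.12 FPKM and the controls at 12.7, 11.6, 11.9 and 11.6 FPKM, again without overlap. The change was -0.70 on the log2 scale (SE 0.08, limma adjusted p = 2.63e-09). At 24 h the 3 treated samples stood at 8.45, 8.03 and 8.58 FPKM and the controls at 12.2, 11.4, 11.7 and 12 FPKM, a mean 29.4% lower (-0.46, SE 0.09, limma adjusted p = 2.69e-05). The decrease was larger at 3 h than at 1 h (difference of the log2 changes -0.85, adjusted p = 5.71e-07). Tbl1xr1, Hdac5 and Hdac7 were the 3 members that passed this comparison of times, all with the larger decrease at 3 h. Of all loci, 11.1% passed in either direction and 4.26% with the lower response at 3 h. From 3 to 6 h the difference was 0.19 (95% interval -0.04 to 0.42, adjusted p = 0.571) and from 6 to 24 h it was 0.24 (0.00 to 0.48, adjusted p = 0.127), and neither passed. The responses at 3 and 24 h were not tested against each other, and their 95% intervals, -1.05 to -0.73 and -0.63 to -0.28, did not meet. No member passed from 3 to 6 h, beside 3.31% of all loci and 1.58% with a lower response. At an unadjusted p under 0.05 there was 1 member, Hdac4, beside 12.1% of all loci.

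Hdac5 (chromosome 11, 102195747 to 102230172), a signal-responsive class IIa enzyme, was the earliest to pass. At 1 h the treated samples were at 32.6, 31.9, 38 and 30 FPKM and the controls at 42.1, 37.1, 42.4 and 39.4 FPKM, so that 1 treated sample lay among the controls (-0.28, SE 0.08, limma adjusted p = 0.0233). This call was lost in 5 of the 8 fits that left out 1 library, namely without IL-4 replicate 1, 2 or 4 or control replicate 1 or 3, with the adjusted p up to 0.114. At 3 h it was at 28, 22.1, 25.4 and 26.1 FPKM after IL-4 and at 45.2, 43.3, 43.1 and 39.5 FPKM in controls, a mean 40.6% lower with no overlap (-0.73, SE 0.08, limma adjusted p = 2.62e-09). The levels after IL-4 were 27.7, 27.8, 29.4 and 30.7 FPKM at 6 h and 25.2, 23.8 and 25 FPKM at 24 h. Controls at these times spanned 44.2 to 48.7 and 38 to 44.2 FPKM, above all treated samples. The log2 changes were -0.66 at 6 h (adjusted p = 2.37e-08) and -0.70 at 24 h (adjusted p = 2.86e-08). The response grew between 1 and 3 h (-0.46, adjusted p = 0.00638), and the later differences of 0.08 and -0.04 did not pass.

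Hdac7 (chromosome 15, 97792664 to 97844502), the class IIa member best known from thymocytes and endothelium, was lower by a smaller amount. At 3 h it was at 5.51, 4.63, 4.97 and 4.25 FPKM after IL-4 and at 8.04, 7.57, 7.07 and 7.12 FPKM in controls, a mean 35.1% lower (-0.54, SE 0.07, limma adjusted p = 1.56e-07). The treated samples were at 5.84, 6.2, 6.36 and 6.23 FPKM at 6 h and at 6.02, 5.85 and 6.29 FPKM at 24 h. Controls were at 8.24 to 9 and 7.62 to 8.75 FPKM, again above every treated sample. The log2 changes were -0.42 (adjusted p = 1.06e-05) and -0.37 (adjusted p = 0.000134). At 1 h the change was -0.07 (adjusted p = 0.67), and the response at 3 h was the larger one (difference -0.46, adjusted p = 0.00153). A decrease that passed at 3, 6 and 24 h was found for 3 of the 9 members and for 6.59% of all loci. The choice of times follows the pattern of these 3 members, so the share is a description.

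**Figure D2:**
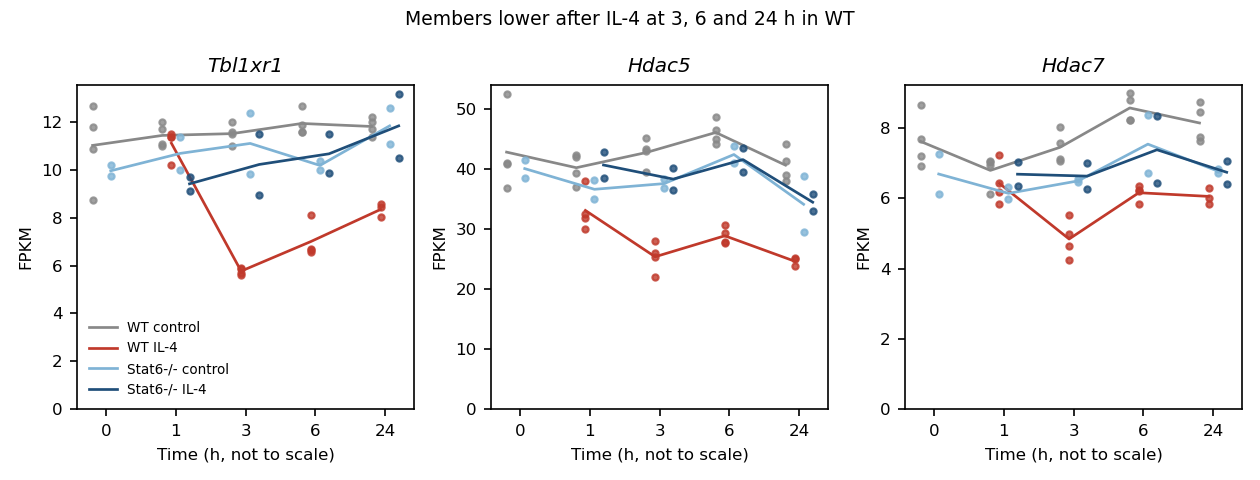
FPKM (y axis, from 0) of Tbl1xr1, Hdac5 and Hdac7 against time in h for WT and Stat6-/- BMDMs with and without IL-4, each point 1 sample and each line the group means. In WT the IL-4 samples at 3, 6 and 24 h lie below all controls of the same time, with Tbl1xr1 at 5.59 to 8.58 FPKM against 11 to 12.7 FPKM, and the Stat6-/- samples stay at 8.97 to 13.2 FPKM.

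The third class IIa gene passed at no time. Hdac4 (chromosome 1, 91932749 to 92148393), the least abundant member, had log2 changes of 0.18, 0.14, -0.20 and 0.06 at 1, 3, 6 and 24 h with adjusted p of 0.233, 0.277, 0.0674 and 0.591. Its 95% interval at 3 h, -0.04 to 0.32, did not reach the changes of Hdac5 or Hdac7 at that time. At 6 h the treated samples spanned 1.4 to 2.11 FPKM and the controls 1.94 to 2.5 FPKM, which overlapped.

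The class I enzymes moved little over the first 6 h. For Hdac1, Hdac2, Hdac3 and Hdac8 the log2 changes at 1, 3 and 6 h lay between -0.08 and 0.10, and none passed. Hdac3 (chromosome 18, 37936971 to 37954988), the catalytic subunit of NCoR complexes, stayed at 20.8 to 27.5 FPKM in the 11 WT samples with 3 h or more of IL-4 and at 20.7 to 28.1 FPKM in their 12 controls. Its change at 24 h was 0.07 (95% interval -0.14 to 0.28, adjusted p = 0.583).

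At 24 h Hdac2 (chromosome 10, 36974544 to 37001888) was the member that rose. It was at 27.1, 24.5 and 23.1 FPKM after IL-4 and at 17.9, 20.2, 18.9 and 20.8 FPKM in controls, a mean 28% higher with no overlap (0.34, SE 0.09, limma adjusted p = 0.00149). Its close relative Hdac1 (chromosome 4, 129516104 to 129542646) went the other way, at 6.18, 7.21 and 6.85 FPKM against 7.34, 7.86, 8.13 and 7.54 FPKM. The decrease of 12.6% was small (-0.17, SE 0.07, limma adjusted p = 0.0477) and passed in 2 of the 7 fits without 1 library. The call was lost without IL-4 replicate 2 (-0.12, adjusted p = 0.243) or 4, or without control replicate 2, 3 or 4. It was lost as well after quantile normalization (-0.09, adjusted p = 0.315), with median-ratio size factors (-0.13, adjusted p = 0.121), without the filter on low values (adjusted p = 0.0656) and with a Tukey adjustment over the groups.

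Hdac8 (chromosome X, 102284640 to 102505148), a class I enzyme that acts outside the known corepressor complexes and deacetylates cohesin, was at 3.88, 3.89 and 3.37 FPKM after 24 h of IL-4. Controls were at 4.6, 5.31, 5.36 and 4.96 FPKM, above all 3 treated samples (-0.36, SE 0.11, limma adjusted p = 0.00608). Its response at 24 h differed from that at 6 h (-0.42, adjusted p = 0.0339), the 1 member to pass there, beside 27.8% of all loci and 16.8% with a lower response. Of the loci that passed, 39.7% had the higher response at 24 h, and 53.3% after quantile normalization. The call for Hdac8 was lost without the filter on low values (adjusted p = 0.0532), after quantile normalization (-0.33, adjusted p = 0.0734) and without any of 6 of the 15 libraries, namely IL-4 replicate 4 or control replicate 2 or 3 at 24 h, or IL-4 replicate 3 or 4 or control replicate 1 at 6 h. Ncor1 (chromosome 11, 62316426 to 62457332) was at 15, 13.9 and 14.4 FPKM against 17.6, 19.2, 16.4 and 16.8 FPKM in controls, 17.5% lower without overlap (-0.26, SE 0.09, limma adjusted p = 0.017). That call was lost without IL-4 replicate 3 (adjusted p = 0.066), without control replicate 2 (adjusted p = 0.0645), with median-ratio size factors (-0.22, adjusted p = 0.0674) and with the Tukey adjustment (adjusted p = 0.355), under which the 24 h decrease of Hdac8 was lost as well (adjusted p = 0.167). The changes of Hdac2, Hdac5, Hdac7, Hdac8 and Tbl1xr1 at 24 h passed without each of the 7 libraries in turn. At 24 h the groups did not overlap for 7 members, beside 37.1% of all loci with IL-4 lower and 27.4% with IL-4 higher.

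Other measures also moved at 24 h of IL-4. All 8 genes of a proliferation list were decreased in WT, with a summed level of 30.5 to 48 FPKM after IL-4 and 64 to 122 FPKM in controls. The macrophage list summed to 2604 to 2626 FPKM after IL-4 and to 3274 to 3773 FPKM in controls, with 4 of 6 genes decreased. The neutrophil list summed to 195 to 287 and 404 to 550 FPKM, with 3 of 5 genes decreased. None of the proliferation and neutrophil genes passed in WT at 3 or 6 h. The median log2 changes at these times were 0.07 and -0.29 for the proliferation list and 0.03 and 0.03 for the neutrophil list. In the macrophage list 1 and 2 genes were decreased at 3 and 6 h. The part of these lists in the results at 3, 6 and 24 h was not tested. In bulk RNA fewer cells of a type and less RNA per cell cannot be told apart. The median log2 change of all loci at 24 h was -0.07, and that of the 9 members was -0.26.

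**Figure D3:**
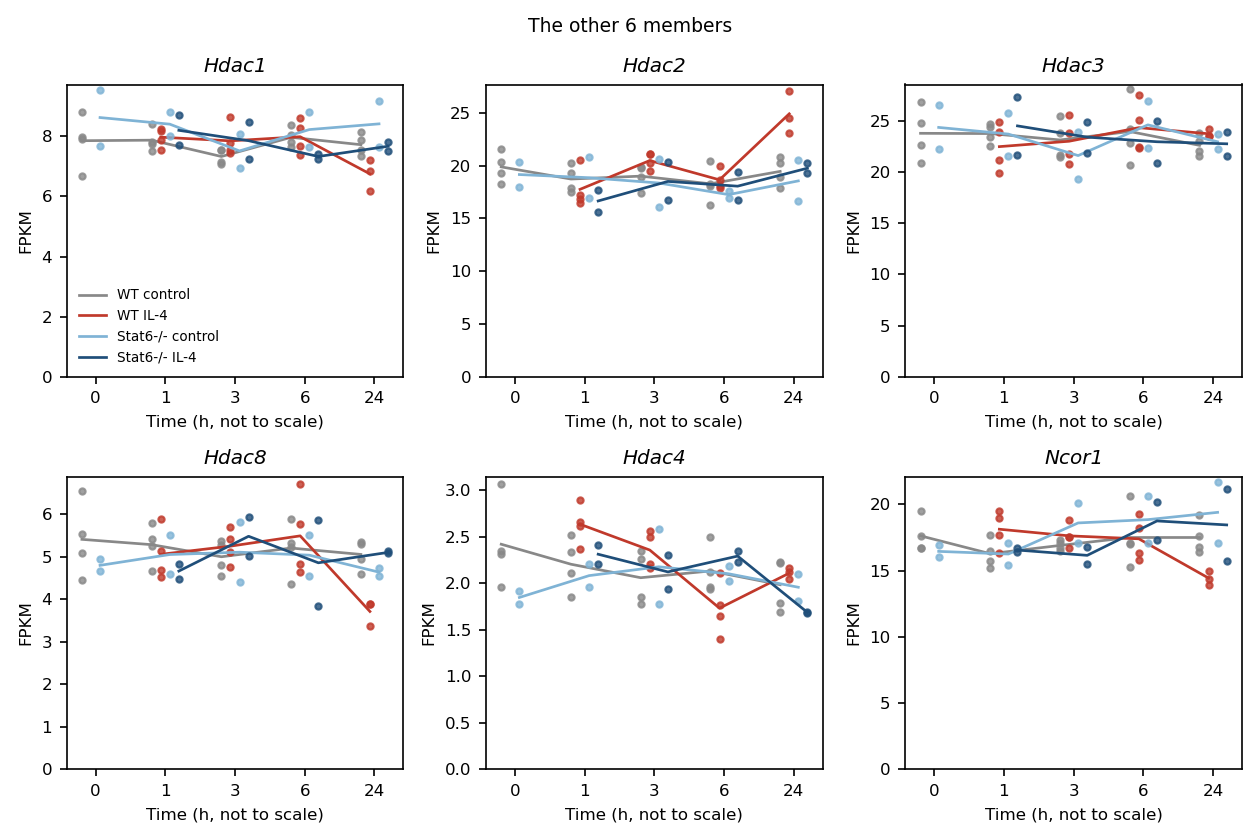
FPKM (y axis, from 0) of Hdac1, Hdac2, Hdac3, Hdac8, Hdac4 and Ncor1 against time in h, drawn as for the 3 lower genes. The WT groups overlap at 1, 3 and 6 h. At 24 h of IL-4 the WT samples stand apart from the WT controls of 24 h for Hdac2 (23.1 to 27.1 FPKM, higher). They are also apart, and lower, for Hdac8 (3.37 to 3.89 FPKM), Ncor1 (13.9 to 15 FPKM) and Hdac1 (6.18 to 7.21 FPKM). Hdac1 overlaps WT controls of other times.

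Next, the need for STAT6 was examined. In Stat6-/- BMDMs no member passed at 1, 3, 6 or 24 h, and no locus of the 11146 passed either. No member had an unadjusted p under 0.05 at any time, beside 0.458%, 1.18%, 0.79% and 0.332% of all loci. These shares lie below what an unadjusted p of 0.05 gives without any response, so the fit was conservative in Stat6-/- cells. It leaves out replicate number, and same-numbered Stat6-/- samples correlated in their deviations from group means (mean r of 0.71). Adding replicate number as a block let 2, 4, 4 and 1 loci pass, and still no member. For Tbl1xr1 the 3 h samples of Stat6-/- cells were at 11.5 and 8.97 FPKM with IL-4 and at 12.4 and 9.83 FPKM without, groups that overlapped. The log2 change at 3 h was -0.11, and its 95% interval of -0.34 to 0.12 did not reach the WT change of -0.89. Hdac5 at 3 h was at 40.2 and 36.5 FPKM with IL-4 and at 36.9 and 38.3 FPKM without (0.02, -0.21 to 0.26), and Hdac7 was at 7.01 and 6.25 against 6.45 and 6.54 FPKM (0.02, -0.18 to 0.23). Across the 4 times the largest changes in Stat6-/- cells were -0.19 for Ncor1 at 3 h and 0.15 for Hdac5 at 1 h. With 2 samples per group, these intervals rest on the spread shared with the WT groups. The pairs of values did not overlap for 4 members at 1 h, with Tbl1xr1 lower (9.72 and 9.13 against 11.4 and 10 FPKM) and Hdac4, Hdac5 and Hdac7 higher, for Ncor1 at 3 h (lower), for Hdac1 (lower) and Hdac4 (higher) at 6 h, and for Hdac4 (lower) and Hdac8 (higher) at 24 h. Of all loci, 5.99%, 6.93%, 6.71% and 3.8% were apart with IL-4 lower and 7.45%, 8.84%, 7.44% and 4.4% with IL-4 higher.

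The difference between the genotypes was then tested directly, as the WT response minus the Stat6-/- response. Tbl1xr1, Hdac5 and Hdac7 passed at 3, 6 and 24 h, and no member passed at 1 h. At 1 h Hdac5 alone had an unadjusted p under 0.05 (-0.42, adjusted p = 0.12), beside 10.2% of all loci. The counts of 0, 3, 3 and 3 members stand beside 3.36%, 11.2%, 16.5% and 27% of all loci. All passing members had the lower response in WT, and 1.15%, 4.22%, 7.19% and 14.8% of all loci passed in that direction. Of the loci that passed at 24 h, 45% had the higher response in WT, and 56.6% after quantile normalization. For Tbl1xr1 the differences were -0.78, -0.76 and -0.45 on the log2 scale at 3, 6 and 24 h (limma adjusted p = 6.17e-05, 7.78e-05 and 0.0166). For Hdac5 they were -0.76, -0.63 and -0.72 (adjusted p = 0.000165, 0.00141 and 0.000261), and for Hdac7 -0.56, -0.39 and -0.37 (adjusted p = 0.00155, 0.0283 and 0.0327). A decrease in WT at all of 3, 6 and 24 h together with a passing difference at all of these times was found for these 3 members and for 1.72% of all loci. This joint rule follows the pattern of these 3 members, so the share is a description. The WT samples of each response enter both tests, so the second is not independent of the first.

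Not all of these differences were equally firm. Those of Hdac5 at all 3 times, of Tbl1xr1 at 3 and 6 h and of Hdac7 at 3 h passed without each library in turn. Tbl1xr1 at 24 h was lost without Stat6-/- IL-4 replicate 2 (-0.29, adjusted p = 0.223) or Stat6-/- control replicate 1 (-0.36, adjusted p = 0.139). Hdac7 at 6 h was lost without Stat6-/- IL-4 replicate 1 (-0.22, adjusted p = 0.324), Stat6-/- control replicate 2 (-0.25, adjusted p = 0.27), WT IL-4 replicate 1 or WT control replicate 1, and passed in 8 of 12 such fits. At 24 h Hdac7 passed in 4 of 11, the losses being the fits without WT IL-4 replicate 2 or 3, WT control replicate 1 or 3, Stat6-/- IL-4 replicate 1 or either Stat6-/- control. Hdac7 at 24 h was also lost after quantile normalization (-0.27, adjusted p = 0.132) and with median-ratio size factors (-0.32, adjusted p = 0.0519), and Hdac7 at 6 h with the groups compared alone (adjusted p = 0.0961).

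For the members that passed in WT at 24 h alone, no difference between the genotypes passed. The differences were 0.24 for Hdac2 (95% interval -0.05 to 0.54, adjusted p = 0.218), -0.18 for Ncor1 (-0.49 to 0.12, adjusted p = 0.388) and -0.06 for Hdac1 (-0.30 to 0.19, adjusted p = 0.764). Hdac8 lay at the threshold with -0.48 (-0.85 to -0.10, adjusted p = 0.05, which did not pass). Its difference passed in 4 of 7 alternative settings, among them the fit with a block for replicate number (-0.51, adjusted p = 0.00234). After quantile normalization it did not pass (adjusted p = 0.147), and it passed in 1 of the 11 fits without 1 library. In Stat6-/- cells at 24 h Hdac8 was at 5.08 and 5.13 FPKM with IL-4 and at 4.54 and 4.74 FPKM without.

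**Figure D4:**
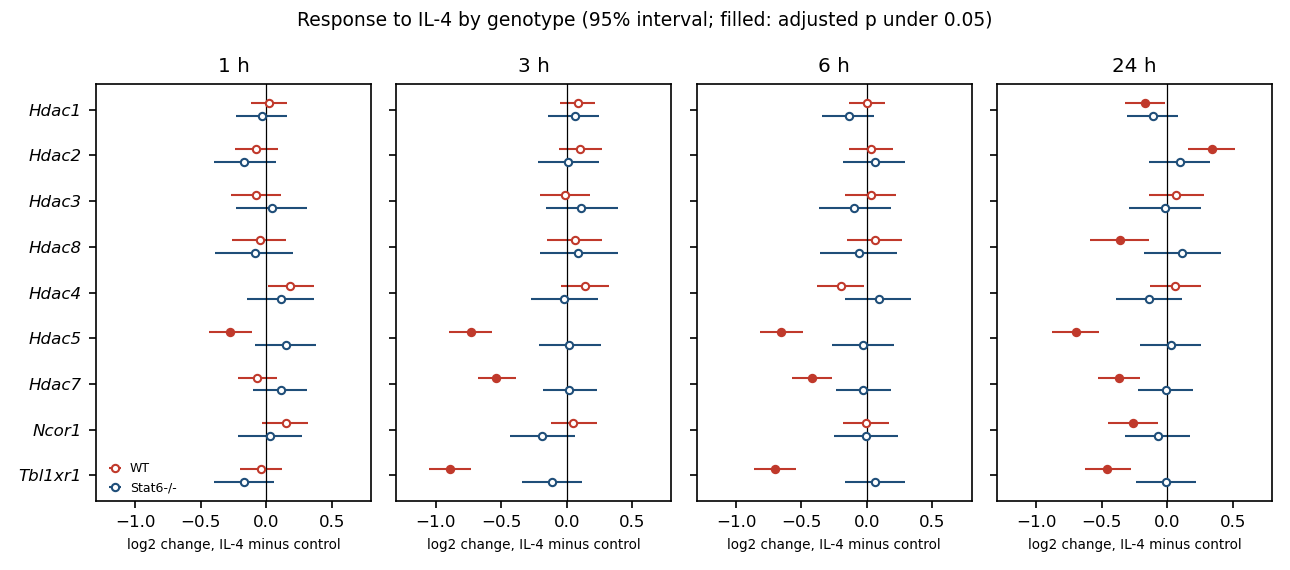
Change with IL-4 on the log2(FPKM + 1) scale (x axis, IL-4 minus control of the same time) with its 95% interval for each member at 1, 3, 6 and 24 h in WT and Stat6-/- BMDMs. Filled points passed at an adjusted p under 0.05. WT intervals of Tbl1xr1, Hdac5 and Hdac7 lie below 0 at 3, 6 and 24 h, down to -1.05 for Tbl1xr1 at 3 h, and no Stat6-/- point is filled.

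Levels without IL-4 were compared as well. At 0 h no member passed between Stat6-/- and WT (2.18% of all loci passed, 1.51% with Stat6-/- lower). Hdac4 alone had an unadjusted p under 0.05, beside 14% of all loci, and the log2 differences ran from -0.26 for Hdac4 to 0.12 for Hdac1. With the controls of the 5 times taken as separate samples, Hdac5 and Hdac7 were lower in Stat6-/- cells (2 of 9 members, beside 21.4% of all loci in either direction and 13.3% lower). Of the loci that passed, 37.6% were higher in Stat6-/- cells, and 51.8% after quantile normalization. Hdac5 was at 29.5 to 43.8 FPKM in the 10 Stat6-/- controls and at 36.9 to 52.6 FPKM in the 20 WT controls (-0.15, SE 0.05, limma adjusted p = 0.013). The call for Hdac5 was lost without Stat6-/- control replicate 1 at 24 h (-0.11, adjusted p = 0.0632). Hdac7 was at 5.97 to 8.36 and 6.13 to 9 FPKM (-0.17, SE 0.04, limma adjusted p = 0.00151). A figure legend of the paper gives 4 WT animals and n = 2 for Stat6-/- cells. Controls of different times therefore share animals, and these p-values are too small. When the controls were averaged per replicate number, giving 4 WT and 2 Stat6-/- values, neither call remained (adjusted p = 0.398 for Hdac5 and 0.327 for Hdac7, with the same log2 differences), and 2 loci passed in all. These differences were small beside the decreases with IL-4, and the ranges overlapped. In the test with separate controls, all 8 proliferation genes were lower and all 5 tested neutrophil genes higher in Stat6-/- cells, beside 21.4% of all loci passing. At 0 h, 1 proliferation gene (lower) and 2 neutrophil genes (higher) passed. With 2 loci passing in all after averaging, most of these calls cannot have remained. The part of these lists in the difference was not tested, and genotype and the animals used cannot be told apart.

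Controls of different times were compared to follow time in culture. From 0 h to 1, 3, 6 or 24 h in WT controls none of the 9 passed, beside 2%, 0.144%, 0.135% and 17.2% of all loci (shares that moved by over 1.5 times in other fits), and the log2 changes lay between -0.19 and 0.15. Decreases made up 1.75%, 0.0628%, 0.0179% and 11.6% of all loci. At 24 h 32.9% of the passing loci were increased, and 56.7% after quantile normalization. At an unadjusted p under 0.05 there were 0, 0, 1 and 1 members, Hdac7 at 6 h and Hdac4 at 24 h, beside 11.7%, 6.48%, 8.1% and 31.1% of all loci. In Stat6-/- controls none passed from 0 to 24 h either (0.718% of all loci passed, 0.565% lower), with changes from -0.24 for Hdac5, the only member with an unadjusted p under 0.05 (14.7% of all loci), to 0.23 for Tbl1xr1.

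Hdac5, Hdac7 and Tbl1xr1 ran in a like pattern over the groups. Across the 18 group means of log2(FPKM + 1), Pearson's r was 0.83 between Hdac5 and Hdac7, 0.76 between Hdac7 and Tbl1xr1 and 0.73 between Hdac5 and Tbl1xr1. They were singled out by their decreases in the same groups, so this likeness is no separate result. Hdac1, Hdac8 and Ncor1, which fell at 24 h alone, were less like them, with r from 0.01 to 0.36. Hdac2 ran against Hdac5 and Hdac1 with r of -0.62 and -0.61. These values are descriptions, since group means share libraries within a group and the WT IL-4 groups weigh most in them. Among all loci tested, the 3 most like Tbl1xr1 were Igsf6, Csgalnact2 and Mbp (r of 0.93, 0.92 and 0.92), the 3 most like Hdac5 were Snx20, Fam187b and Camsap3 (0.94 each), and those most like Hdac7 were Hmha1, Thap6 and Cnnm2 (0.90, 0.89 and 0.89). Ncor1 was closest to Eif2c3, Chd6 and Zfp871 (0.95, 0.94 and 0.93). The nearest loci were Polr3g, Gpt2 and Actn1 for Hdac2 (0.86 each), Tmem159, H2-M3 and Pvrl2 for Hdac8 (0.88, 0.88 and 0.87), Ppil2, Fuz and Poglut1 for Hdac1 (0.85, 0.79 and 0.79), Dap3, Rfxank and Ccdc130 for Hdac3 (0.81, 0.80 and 0.79) and Paqr3, Kitl and Fam217b for Hdac4 (0.77, 0.76 and 0.76). Group means of Hdac3 spanned 0.18 on the log2(FPKM + 1) scale, so its likenesses rest on small differences.

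Other subunits of the NCoR complex gave a setting for Ncor1 and Tbl1xr1. Tbl1x, the X-linked paralog of Tbl1xr1, was lower at 3 h, at 10.2 ± 0.929 against 13.4 ± 0.492 FPKM (4 samples each), and at 6 h (log2 changes -0.36 and -0.40, limma adjusted p = 0.0408 and 0.0166). It was back at 12.1 ± 1.34 FPKM (n = 3) against 11.9 ± 1.33 FPKM (n = 4) at 24 h. Its response did not pass against that of Stat6-/- cells at 3 or 6 h (adjusted p = 0.747 and 0.16). Gps2, a small subunit of the same complex, had changes of -0.13 to 0.12 and did not pass at any time. The list also held Zbtb33, the gene of the NCoR-binding factor Kaiso, which was decreased at 24 h (-0.30, adjusted p = 0.0337), the 1 of these 3 genes that passed at that time, and was named after its values were seen. Of the remaining deacetylases, Hdac6, which acts on tubulin, was decreased at 6 and 24 h (-0.41 and -0.28, adjusted p = 0.00338 and 0.0489) and Hdac10, a polyamine deacetylase, at 24 h (-0.37, adjusted p = 0.000467). Hdac9, the remaining class IIa gene, ranged from 0.503 to 5.06 FPKM and did not pass, with changes of 0.23, 0.44, -0.19 and -0.05. Hdac11 stayed under 1 FPKM in every sample and was not tested.

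In all, 79 other genes of deacetylase and acetyltransferase complexes and of class IIa regulation were listed, of which 73 were tested. In WT with IL-4, 3, 6, 9 and 9 were increased at 1, 3, 6 and 24 h, and 4, 14, 22 and 33 were decreased. The passing shares of 9.59%, 27.4%, 42.5% and 57.5% lay near those of all loci. The median log2 change of the list was -0.07 at 3 h and -0.20 at 24 h. At 24 h 31.6% of all loci were decreased and 23.4% increased. By complex at that time, 5 of 13 SIN3 genes were decreased and none increased, and 3 of 11 NuRD genes were increased and 3 decreased. Of 12 acetyltransferases, 7 were decreased and 2 increased. Ep300, the acetyltransferase p300, was among the latter decreases (from 19.4 ± 1.16, n = 4, to 14 ± 0.777 FPKM, n = 3, a log2 change of -0.44, limma adjusted p = 0.00467), whereas its paralog Crebbp did not pass (-0.10, adjusted p = 0.298). Neither response passed against that of Stat6-/- cells (adjusted p = 0.115 and 0.71).

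Among the partners and kinases of class IIa enzymes, 3 genes passed with a 2-fold change, which no member did. Mef2c, a MEF2 factor that class IIa enzymes bind, fell at 3 h to 6.9 ± 0.44 FPKM from 15.2 ± 0.592 in controls, and at 6 h to 5.46 ± 0.538 from 15.6 ± 0.893 FPKM (4 samples each). The log2 changes were -1.04 and -1.36 (limma adjusted p = 4.97e-08 and 6.24e-11). The responses differed from those of Stat6-/- cells by -0.98 and -1.33 (adjusted p = 0.00251 and 3.69e-05). Sik1, a salt-inducible kinase that phosphorylates class IIa enzymes, fell at every time, most at 1 h from 6.71 ± 0.718 to 2.34 ± 0.186 FPKM (-1.20, adjusted p = 1.4e-06). Against Stat6-/- cells Sik1 passed at 24 h (-1.07, adjusted p = 0.00823) and not at 1 h (-1.01, adjusted p = 0.051). Camk1d, a calmodulin-dependent kinase, fell from 16.7 ± 1.2 to 8.05 ± 0.496 FPKM at 6 h and was -1.07 at 24 h on the log2 scale (adjusted p = 2.17e-07), and differed from Stat6-/- cells at both times (-0.96 and -1.06, adjusted p = 0.00406 and 0.00134). Of the 9 kinases tested, 3 were increased and 3 decreased at 3 h, and 2 and 6 at 24 h, beside 28.9% and 55% of all loci passing.

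**Figure D5:**
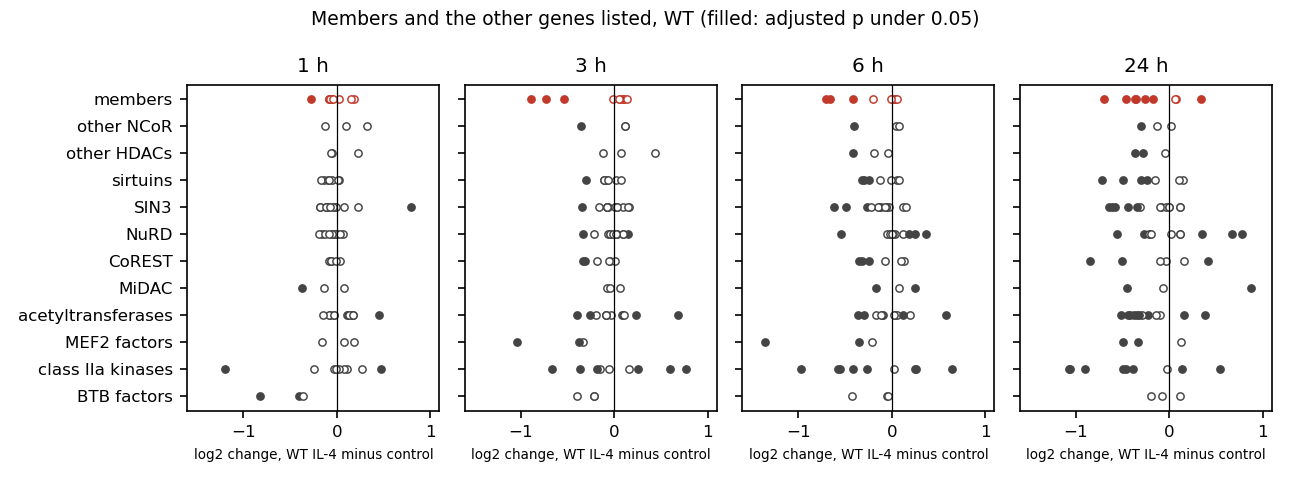
Change with IL-4 in WT on the log2(FPKM + 1) scale (x axis) at 1, 3, 6 and 24 h for the 9 members and the 73 other genes tested, by list and without the nuclear receptors, each point 1 gene and filled points past an adjusted p of 0.05. At 3 h the filled members lie at -0.89, -0.73 and -0.54, and the lowest point at 3 and 6 h is Mef2c, at -1.04 and -1.36.

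Nuclear receptors are among the factors that bring NCoR to chromatin, and 11 of 12 listed were tested. At 3 h 1 was increased and 4 decreased, beside 28.9% of all loci passing and 12.5% decreased. At 24 h 1 was increased and 5 decreased, so that 6 of 11 passed, beside 55% of all loci passing and 31.6% decreased. Rara, a retinoic acid receptor, rose at 3 h from a control level of 8.85 ± 0.547 FPKM to 23.8 ± 2.17 FPKM (4 samples each, a log2 change of 1.33, limma adjusted p = 7.2e-11). Pparg rose at 24 h from 35.2 ± 3.49 (n = 4) to 80.5 ± 3.23 FPKM (n = 3), a log2 change of 1.18 (adjusted p = 1.56e-09). Nr1d2, which encodes the heme receptor REV-ERBβ, fell at 24 h from 16 ± 1.24 to 6.84 ± 1.24 FPKM (-1.12, adjusted p = 0.000138). Each of these responses differed from that of Stat6-/- cells at the same time (1.12, 1.11 and -1.07, adjusted p = 0.000385, 0.000169 and 0.0384).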

How the data were processed

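Poly-A RNA was sequenced by the authors from 53 BMDM samples in 18 groups. According to their methods and the processing notes, paired reads of 100 bases were mapped to mm10 with TopHat2 2.0.7 and quantified with Cufflinks 2.0.2. The deposited values are FPKM per gene locus, 1 table per sample, with replicates not pooled. The gene annotation is not given in the sources used here. Of 23847 loci, 740 share a symbol with another locus, and values too small to be printed with a digit were set to 0 (4316 values).

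Samples were grouped by genotype, treatment and time from the labels. No pair of samples was identical. FPKM was transformed as log2(FPKM + 1), a locus was kept when any sample had 1 FPKM or more (11146 loci), and group means were fitted to all 53 samples with limma 3.58.1 in R 4.3.3 (moderated test with an intensity trend, two-sided, 35 residual degrees of freedom, Benjamini-Hochberg adjustment within each of 22 contrasts, 95% intervals). The authors' methods use another test, gene by gene across the groups, which is stood in for by a Tukey adjustment among the alternatives. An adjusted p under 0.05 passed, and a log2 change of 1 or more was called 2-fold. The fit was also tested on simulated data with independent noise, which did not carry the correlation between same-numbered samples. FPKM without counts leaves the depth unknown, so no counting interval is given. Replicate numbers are shared between groups, but the labels do not tie them to animals. WT replicate 1 at 24 h of IL-4 was not analysed here.

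Alternatives were a pseudocount of 0.1, no filter, quantile normalization, median-ratio size factors, an untrended robust fit, a replicate block, the compared groups alone, the Tukey adjustment, and each library left out. Averaging the controls per replicate number was added after the data were seen. Promoters came from RefSeq tables of GRCm38.p6. Figures used Python 3.11.15 with matplotlib 3.10.9.

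All members were named. Of the other lists, Tbl1x, Gps2, Hdac6, Hdac9, Hdac10, Hdac11, Ep300, Crebbp and Stat6 were always named, and in each other list up to 3 genes with the largest changes among those passing with a 2-fold change in WT. For each member the 3 loci with the highest correlation of group means were named. Members and lists were chosen with earlier results of these data known. A listed gene is not reported here.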

Additional observations from a re-analysis of the deposited data

Results flagged for a closer look

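Among 72 sets of 4 WT samples of a member, 3 held a sample far from the other samples of its group by Dixon's test, and chance flags about 1 in 20 sets (3.6 here). Hdac7 was at 6.13 FPKM in WT control replicate 2 at 1 h, with the others at 6.94 to 7.07 FPKM. Tbl1xr1 was at 10.2 FPKM in WT IL-4 replicate 3 at 1 h (others 11.4 to 11.5 FPKM) and at 8.12 FPKM in WT IL-4 replicate 4 at 6 h (others 6.59 to 6.69 FPKM). The decrease of Tbl1xr1 at 6 h passed without that library.

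The response to IL-4 differed between WT and Stat6-/- cells in 9 of the 36 tests of a member at a time. On the log2 scale, as WT minus Stat6-/-, the differences of Tbl1xr1 were -0.78, -0.76 and -0.45 at 3, 6 and 24 h, those of Hdac5 were -0.76, -0.63 and -0.72, and those of Hdac7 were -0.56, -0.39 and -0.37 (limma adjusted p between 6.17e-05 and 0.0327). In every one the WT samples were lower with IL-4.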

How the results depend on the processing

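The decreases of Tbl1xr1, Hdac5 and Hdac7 in WT at 3, 6 and 24 h and the increase of Hdac2 at 24 h passed under all 8 alternatives and without each library, and no result changed direction while past the threshold. At 1 h the count of members was 0 in place of 1 with the groups compared alone and with the Tukey adjustment, and 0 to 1 without single libraries. At 24 h it was 4 in place of 7 with the Tukey adjustment. Without single libraries the count for the difference between genotypes was 0 to 1 at 1 h (0 with all) and 1 to 3 at 24 h (3 with all, 1 without Stat6-/- control replicate 1 at 24 h). For genotype in controls it was 1 to 3 (2 with all, 1 without Stat6-/- control replicate 1 at 24 h, 3 without WT control replicate 1 at 0 h or Stat6-/- control replicate 1 at 3 h). Between 6 and 24 h it was 1 with all, 0 without the filter, 3 after quantile normalization, with median-ratio size factors and with the groups compared alone, 4 with the replicate block, and 0 to 2 without single libraries. Averaging the controls per replicate number, chosen after seeing the data, left 0 members for genotype in controls. Where leaving out a library left 1 Stat6-/- sample in a group, that sample was assumed to vary like the others.

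Same-numbered samples correlated in their deviations with a mean r of 0.22 in WT (lowest -0.14) and 0.71 in Stat6-/-, where a second number must mirror the first, and 29 of 35 WT samples correlated best with their own number. The numbers are not given as animals, so the block was kept as an alternative. With the replicate block 1 member, Hdac5, passed for the difference at 1 h (0 without it), Hdac8 passed for the difference at 24 h (adjusted p = 0.00234) and Hdac4 in WT at 6 h (adjusted p = 0.0363). Loci passing with the block were 1908, 4580, 6154 and 7379 in WT (1047, 3220, 4590 and 6131 without), 2, 4, 4 and 1 in Stat6-/- (0 without) and 841, 2381, 3362 and 5019 for the difference (374, 1248, 1837 and 3008 without). No block could be fitted to the genotype comparison, whose numbers lie within genotype.

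Counts of all loci also moved by over 1.5 times with the Tukey adjustment, to 2017, 2834 and 3706 at 3, 6 and 24 h in WT, and in Stat6-/- cells to 1, 4, 4 and 11 without the filter. With the groups compared alone 1 locus in place of 243 passed between genotypes at 0 h. Loci passing over time in WT controls were 223, 16, 15 and 1922, 722, 144, 581 and 4134 with the replicate block, and 3, 3, 7 and 1972 with the groups compared alone. In Stat6-/- controls from 0 to 24 h they were 80, 1873 with the block, 200 without the filter and 0 with the groups alone. Responses from 1 to 3 h, 3 to 6 h and 6 to 24 h passed for 1238, 369 and 3094 loci, and for 2472, 1319 and 4916 with the block. Of the loci passing at 24 h, 42.6% were increased, 51.1% after quantile normalization and 48.1% with median-ratio size factors, and for the difference at 24 h 45%, 56.6% and 52.6%. For genotype in controls the increased share was 37.6%, 51.8% and 47.1%. Between 6 and 24 h it was 39.7%, 53.3% and 51.5%. With 2 Stat6-/- samples a group and unknown depth, small responses there were not detectable.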
